A study of Homo sapiens with 14 samples.

Results

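The 14-3-3 protein genes YWHAE, YWHAG, YWHAZ, YWHAB, YWHAQ and YWHAH are 6 of the 16640 genes that carried a C-to-U edit site on their own strand in these libraries. They were taken as a named family, and every site on the strand and within the Gencode 44 span of a member was counted, which gave 369 of the 394915 sites called. The family was chosen by name, with the RBFOX2 and control site counts of these same libraries already known, so its counts are given as a description and the p-values below are not independent evidence of a direction. INSCRIBE marks the RNAs bound by a protein in fixed cells: an antibody to the protein recruits a nanobody fused to the cytidine deaminase APOBEC1, which converts nearby cytosines to uracil. The cells were methanol-fixed HEK293T (also written HEK293XT in the labels), a human embryonic kidney line, and all of them were fixed, blocked, washed and held overnight in editing buffer. RBFOX2 libraries received a rabbit antibody to RBFOX2 and the APOBEC1-nanobody, Enzyme-only libraries received the APOBEC1-nanobody without antibody, and Buffer-only libraries received neither. Libraries were made from 1 ng or 100 pg of total RNA, with 3 RBFOX2, 1 Enzyme-only and 3 Buffer-only libraries per input. The paper does not state whether both inputs were drawn from the same edited RNA, so likeness between inputs may not be independent. Replicates were prepared on separate slides of 1 cell line, so the spread between them covers the procedure and not differences between lines, and nothing replicates an Enzyme-only value within its input. The paper's captions call its INSCRIBE replicates technical, and its reporting summary describes replicates as wells of the same cells.

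The 14-3-3 proteins are small adaptors that form dimers and bind phosphorylated serine or threonine in other proteins, among them RAF kinases, FOXO transcription factors, CDC25 phosphatases and the YAP coactivator. Binding masks localisation signals, holds clients in the cytoplasm or alters their activity, and the isoforms are abundant in brain and in most cultured cells. RBFOX2 is an RNA-binding protein best known for regulating alternative splicing, which recognises UGCAUG and the core GCAUG in introns and 3′UTRs. The question put to the family was whether edit sites lay near UGCAUG in the members that hold it, and how the member without it compared.

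UGCAUG was searched on the gene's strand in the annotated 3′UTR of each member, with GCAUG, which it contains, as the shorter form. It was found in 5 of 6 members: once in YWHAE, YWHAZ, YWHAQ and YWHAH, and at 2 places in YWHAG. YWHAB held neither UGCAUG nor GCAUG in 2097 nt of 3′UTR. Of all 19608 genes with an annotated 3′UTR, 37.1% held UGCAUG, and of the 7310 genes whose 3′UTR was 1267 to 4173 nt long, the range of the members, 50.2% did. The windows around the hexamer are shown because the distances of edit sites below are counted from its centre. No window is printed for YWHAZ, whose hexamer is given by position where that gene is described. Each runs 5′ to 3′ on the RNA strand in hg38, with UGCAUG in capitals as DNA letters.
YWHAE, chr17:1344762-1344791, minus strand: tatggaaaagccTGCATGcctgttcaattc
YWHAG proximal, chr7:76329128-76329157, minus strand: ctgtctcggctcTGCATGttttccagggtg
YWHAG distal, chr7:76327328-76327357, minus strand: gatacaatattgTGCATGctagtgttgtat
YWHAQ, chr2:9584508-9584537, minus strand: ggcaaattaaagTGCATGtcatttcttaat
YWHAH, chr22:31957172-31957201, plus strand: cagtacatcttgTGCATGcaaaaatgaatt
Proximal and distal in YWHAG refer to the distance from the stop codon.

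At 1 ng, libraries held 40162 to 42589 sites with RBFOX2, 38007 with Enzyme-only and 20330 to 22543 with Buffer-only. At 100 pg the numbers were 26554 to 27437, 24829 and 18650 to 21140. The groups thus differed in total sites, so a higher count with RBFOX2 is not by itself particular to a gene. A site count also follows how much of a transcript was sequenced, and in bulk RNA fewer cells and less RNA per cell cannot be told apart. Of 9 genes fixed as markers of the line 7 had sites, with PAX2 and PAX8 at 0, and of 11 markers of other cell types 4 had sites, 7 sites in all against 229 for the line markers. The low-input library kit is not stated to keep the RNA strand, so reads of a member and of a gene on the opposite strand cannot be told apart.

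Most family sites lay in 3′UTRs, and they were more numerous with RBFOX2 than in either control at 1 ng. Of the 369 sites, 304 (82.4%) were in 3′UTRs, 22 in coding sequence, 24 in introns, 14 in 5′UTRs and 5 in noncoding exons, while 35.8% of the sites of all other genes were in 3′UTRs. Within the RBFOX2 libraries the 3′UTR share was 84.0% for the members against 40.7% for other genes, and within the Buffer-only libraries it was 73.7% against 26.7%. At 1 ng the 3 RBFOX2 libraries held 53, 48 and 51 sites in the 3′UTRs of the 6 members, the Enzyme-only library held 12, and the Buffer-only libraries held 5, 8 and 10. The means were 50.7 ± 2.52 with RBFOX2 and 7.67 ± 2.52 with Buffer-only (SD, n = 3 each), and the groups did not overlap. With 100 pg these were 29, 17 and 28 sites with RBFOX2, 24 with Enzyme-only, and 9, 2 and 8 with Buffer-only. The RBFOX2 mean at 100 pg was 24.7 ± 6.66 and the Buffer-only mean 6.33 ± 3.79 (SD, n = 3 each), and the Enzyme-only library lay inside the RBFOX2 range. Summed over replicates the members had 6.61 times as many 3′UTR sites with RBFOX2 as with Buffer-only at 1 ng (95% exact interval 4.25 to 10.7, counting error only), and all other genes had 3.96 times as many. The 100 pg ratios were 3.89 (2.33 to 6.83) and 2.38. By member the 1 ng ratio was 43 in YWHAG and 7.71 in YWHAE. It was 3.4 in YWHAB, 3.13 in YWHAZ and 2.5 in YWHAH, all below 3.96, and YWHAQ had 8 sites against 0. The excess of the family over other genes at 1 ng thus lay mainly in YWHAG and YWHAE. All other genes together had 40939 3′UTR sites in the 3 RBFOX2 libraries, 9605 in the Enzyme-only library and 10331 in the 3 Buffer-only libraries at 1 ng, and 17937, 4382 and 7522 at 100 pg.

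**Figure D1:**
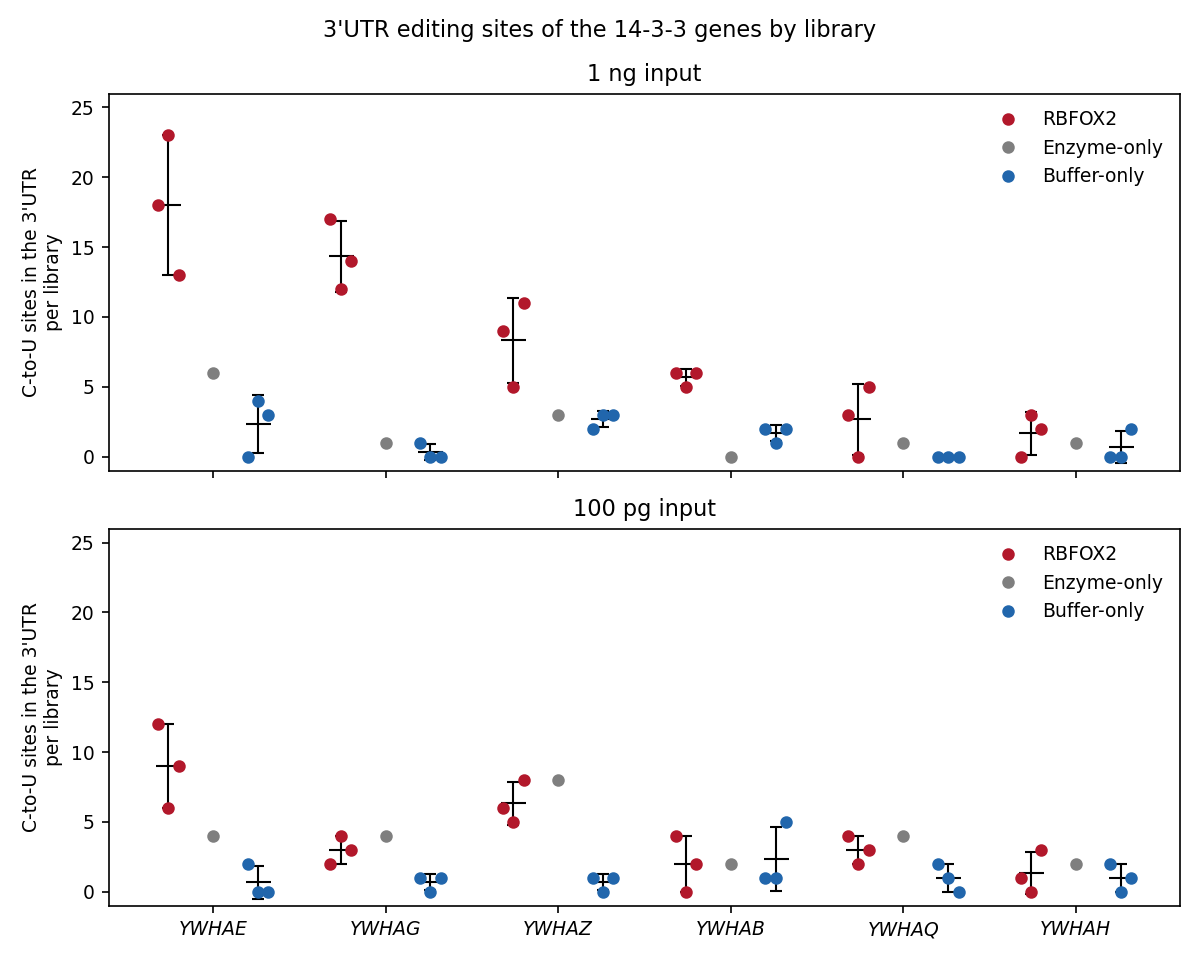
C-to-U sites in the 3′UTR of each 14-3-3 gene, 1 point per library, at 1 ng (top) and 100 pg (bottom), with RBFOX2 left of Enzyme-only and Buffer-only; bars are the mean and SD of 3 libraries. YWHAE and YWHAG stand above both controls at 1 ng, with 13 to 23 and 12 to 17 sites per RBFOX2 library, and the Enzyme-only points reach the RBFOX2 range of YWHAG, YWHAZ, YWHAB, YWHAQ and YWHAH at 100 pg.

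YWHAG, the gamma isoform, which is prominent in neurons, had the clearest separation of RBFOX2 from the controls at 1 ng. The gene lies on the minus strand of chromosome 7 (hg38, 76326799 to 76358991), with a 3′UTR of 2781 nt that holds 535 cytosines. At 1 ng the RBFOX2 libraries held 17, 12 and 14 sites in this 3′UTR, the Enzyme-only library held 1, and the Buffer-only libraries held 1, 0 and 0. The summed ratio of RBFOX2 to Buffer-only was 43 to 1 (95% exact interval 7.32 to 1737, counting error only), so its size is poorly fixed although every RBFOX2 library was above every control. From 100 pg, YWHAG had 2, 4 and 3 sites with RBFOX2, 4 with Enzyme-only, and 1, 0 and 1 with Buffer-only, so the Enzyme-only library was at the top of the RBFOX2 range.

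The YWHAG sites gathered around the distal hexamer. Within 50 nt of its centre the RBFOX2 libraries at 1 ng held 16 sites at 10 cytosines, 9 upstream and 7 downstream, with edit fractions of 1.61% to 8.06%, and all 3 libraries took part. The proximal hexamer had 3 sites, all in RBFOX2 replicate 3. The Enzyme-only and the Buffer-only libraries had no site near either hexamer at 1 ng, where 0 sites allow up to 3 over the libraries counted. Counting both hexamers, the RBFOX2 libraries held 9, 4 and 6 near sites, against 0, 0 and 0 in Buffer-only, and the 95% exact lower limit of the ratio of the sums was 4.67 (counting error only). Of the 45 YWHAG cytosines within 50 nt of a hexamer 14.1% ± 5.59 were edited per RBFOX2 library, against 1.63% of the 490 farther ones (8 sites in each of the 3 libraries). Read depth was uneven along the gene. RBFOX2 clusters at 1 ng had mean depths of 11.7 to 255 reads, with 80.2 to 92.6 over the distal hexamer and 47.7 over the proximal one. Farther clusters lay both above and below these depths, so near and far cytosines were not compared at equal sensitivity. At 100 pg the cytosine at 76327362, 19.5 nt upstream of the distal centre, was edited in RBFOX2 replicates 1 and 3, at 18.5% and 5.13% of 27 and 39 reads. The same position was edited in RBFOX2 replicates 1 and 2 at 1 ng, at 5.88% and 8.06% of 34 and 62 reads, and in no control library. A different cytosine, 76327293, 49.5 nt downstream, was edited in RBFOX2 replicates 1 and 2 at 1 ng and at 28.6% of 28 reads in the Enzyme-only library at 100 pg. The proximal hexamer had 1 site at 100 pg in RBFOX2 replicate 3 (15.2% of 46 reads) and 1 in Buffer-only replicate 3 (3.85% of 26 reads).

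YWHAE, the epsilon isoform, whose gene falls in the region deleted in Miller-Dieker syndrome, had the most sites of the family and the fewest reads behind each. It lies on the minus strand of chromosome 17 (1344275 to 1400222), with 271 3′UTR cytosines. At 1 ng the RBFOX2 libraries held 18, 23 and 13 3′UTR sites, the Enzyme-only library 6, and the Buffer-only libraries 0, 4 and 3. The 100 pg libraries held 12, 6 and 9 with RBFOX2, 4 with Enzyme-only, and 2, 0 and 0 with Buffer-only. RBFOX2 and Buffer-only did not overlap at either input. Per 1000 3′UTR cytosines YWHAE had 66.4 ± 18.5 sites with RBFOX2 at 1 ng against 8.61 ± 7.68 with Buffer-only. Near the hexamer, 10.1% ± 4.63 of 33 cytosines were edited per RBFOX2 library at 1 ng, against 6.16% ± 2.39 of the 238 farther ones, so the near and far shares overlapped. The Buffer-only libraries had 3 of their 7 YWHAE sites at 1 ng within 50 nt of the hexamer, and the RBFOX2 libraries 10 of 54.

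The reads counted at YWHAE 3′UTR sites were far below the mean depth given for their clusters. The 100 YWHAE 3′UTR sites of the 14 libraries had a median of 11 counted reads (5 to 93), and 57 of them rested on 1 edited read. The clusters holding them had a mean depth of 286 to 2038 reads by the authors' cluster caller, and a site counted a median of 1.00% of the depth of its cluster. For the 3′UTR sites of YWHAG, YWHAZ, YWHAB, YWHAQ and YWHAH this median was 48.7% to 51.5%, and over the 234404 sites of the series that fell in a cluster it was 47.1%, with 0.474% of those sites below the YWHAE median. The 9 YWHAE coding sites had a median of 183 reads. Low values were not confined to YWHAE. At intron sites the median was 2.33% in YWHAZ, 1.43% in YWHAB, 1.51% in YWHAQ and 2.52% in YWHAH, on 1 to 11 sites each. In YWHAG introns it was 36.2%. Of the 3′UTR sites of the series with 5 to 17 reads, 62.5% rested on 1 edited read, while every one with at least 100 reads had at least 2 and every one with at least 200 reads at least 3, so the number of sites in YWHAE cannot be set against that of YWHAZ or YWHAQ at equal sensitivity. The part of this difference in the YWHAE counts was not tested, and the low counted depth was shared by the groups at 1 ng, with a median per site of 11 reads under RBFOX2, 10 under Enzyme-only and 11 under Buffer-only.

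**Figure D2:**
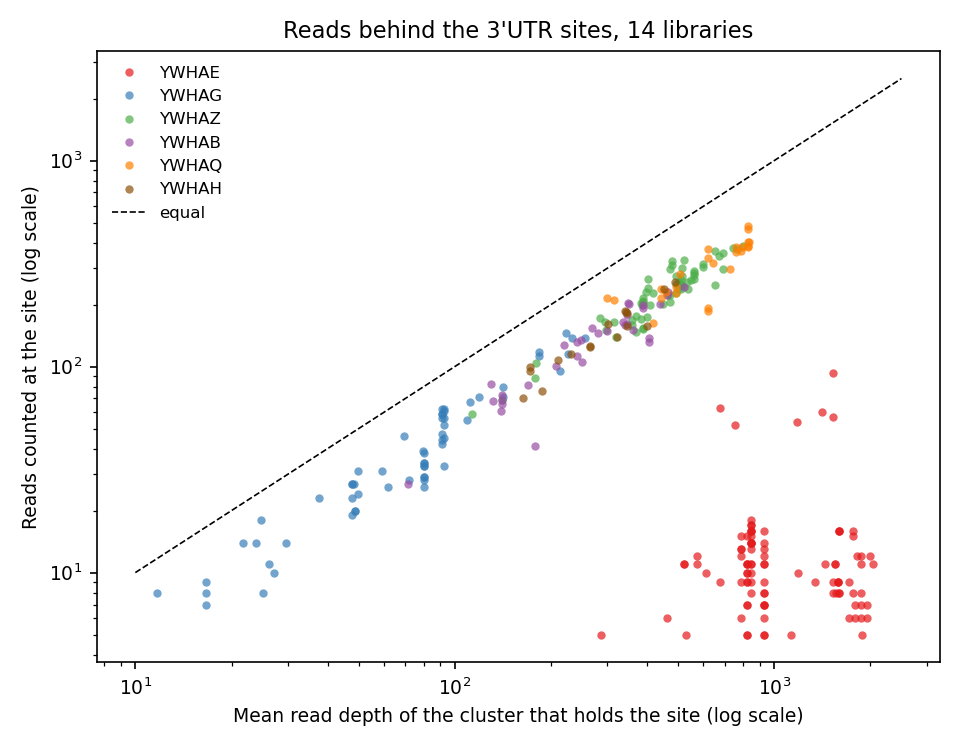
Reads counted at each 3′UTR site of the 14-3-3 genes (vertical, log scale) against the mean depth of the cluster that holds it (horizontal, log scale) in all 14 libraries; the dashed line marks equal values. YWHAE sites lie at a median of 1.00% of the cluster depth, while those of the other 5 genes follow a line at 48.7% to 51.5%.

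YWHAZ, the zeta isoform, which is widely expressed, had 1 of its 25 RBFOX2 sites at 1 ng near its hexamer, a stretch with 11 cytosines. It lies on chromosome 8, minus strand (100916523 to 100953388), with the longest 3′UTR of the family (4173 nt, 792 cytosines) and UGCAUG at 100919849 to 100919854. In the 1 ng set the RBFOX2 libraries held 9, 5 and 11 3′UTR sites, the Enzyme-only library 3, and the Buffer-only libraries 2, 3 and 3. The 100 pg counts were 6, 5 and 8 with RBFOX2, 8 with Enzyme-only, and 1, 0 and 1 with Buffer-only. Every RBFOX2 library was above every Buffer-only library at both inputs, with a summed ratio at 1 ng of 3.13 (95% exact interval 1.37 to 8.02, counting error only), against 3.96 for all other genes. The Enzyme-only library at 100 pg equalled the highest RBFOX2 value. None of 19 RBFOX2 sites at 100 pg was within 50 nt of UGCAUG, and the median distances were 428.5 nt at 1 ng and 503.5 nt at 100 pg. Of the 11 near cytosines 3.03% ± 5.25 were edited per RBFOX2 library at 1 ng, against 1.02% ± 0.339 of the 781 farther ones. The Enzyme-only library at 1 ng also had 1 near site. Coverage was high, with a median of 238 reads and an edit fraction of 1.74% at the median over all groups.

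YWHAQ, the theta isoform, had few sites at 1 ng, and 5 of its 8 RBFOX2 sites flanked the hexamer. The gene lies on chromosome 2, minus strand (9583967 to 9630997), with 241 cytosines in 1322 nt of 3′UTR. Its 1 ng RBFOX2 libraries held 3, 0 and 5 3′UTR sites, the Enzyme-only library 1, and the Buffer-only libraries 0, 0 and 0. RBFOX2 replicate 2 had none, so RBFOX2 and Buffer-only overlapped. The near sites were at 9584506 in RBFOX2 replicates 1 and 3 (1.57% of 382 reads and 1.34% of 374) and at 9584513, 9584547 and 9584551 in replicate 3 (2.39%, 1.61% and 1.55%), between 28.5 nt upstream and 16.5 nt downstream of the centre. Among 100 pg libraries RBFOX2 gave 4, 2 and 3 sites, none within 50 nt, against 4 in Enzyme-only and 2, 1 and 0 in Buffer-only. The nearest RBFOX2 site at 100 pg was 93.5 nt away.

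YWHAH, the eta isoform, holds UGCAUG and had no RBFOX2 site near it at either input. It lies on the plus strand of chromosome 22 (31944522 to 31957603) and overlaps the antisense transcript YWHAH-AS1. Its RBFOX2 libraries at 1 ng held 0, 3 and 2 3′UTR sites, the Enzyme-only library 1, and the Buffer-only libraries 0, 0 and 2. The 100 pg values were 1, 0 and 3 with RBFOX2, 2 with Enzyme-only, and 2, 0 and 1 with Buffer-only. The groups overlapped at both inputs. The nearest RBFOX2 site was 77.5 nt from the hexamer, and the only site within 50 nt in any library was in Buffer-only replicate 1 at 100 pg (1.44% of 139 reads). Its 3′UTR sites had a median of 139 reads and at least 2 edited reads each.

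YWHAB, the beta isoform, known for binding RAF kinases, is the member without the hexamer. It lies on the plus strand of chromosome 20 (44885702 to 44908532), with 403 3′UTR cytosines. From 1 ng, RBFOX2 libraries held 6, 5 and 6 3′UTR sites, the Enzyme-only library 0, and the Buffer-only libraries 2, 1 and 2. RBFOX2 and Buffer-only did not overlap, but the summed ratio of 3.4 (95% exact interval 1.204 to 11.8, counting error only) stood beside 3.96 for all other genes. With 100 pg there were 4, 0 and 2 with RBFOX2, 2 with Enzyme-only, and 1, 1 and 5 with Buffer-only, and the groups overlapped, with the highest value in Buffer-only replicate 3. The cytosine at 44906884 was edited in RBFOX2 replicates 1 and 2 at 1 ng (5.34% of 131 reads and 1.57% of 127) and was the only YWHAB 3′UTR position found in more than 1 RBFOX2 library of that input. At 1 ng, 4 further RBFOX2 sites lay in noncoding exons of YWHAB transcripts, on 6 to 10 reads each, against 0 in Enzyme-only and Buffer-only.

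Members with UGCAUG were set against the member without it as sites per 1000 3′UTR cytosines. At 1 ng the 5 members with the hexamer had 20.9 ± 0.929 with RBFOX2 and 2.79 ± 1.23 with Buffer-only, and YWHAB had 14.1 ± 1.43 with RBFOX2 and 4.14 ± 1.43 with Buffer-only (SD, n = 3 libraries each). The difference between members with and without the hexamer was 6.85 ± 0.781 sites per 1000 cytosines over the RBFOX2 libraries at 1 ng, and 5.57 ± 3.38 at 100 pg. It rested on YWHAE: without that gene the difference at 1 ng was 0.293. With sites of at least 10 reads it was 3.44, and without YWHAZ, the member of the longest 3′UTR, 12.9. YWHAE sites were called on far fewer reads than those of the other members, so its place in the comparison is not at equal sensitivity. YWHAG sites had a median of 33 reads, and 48.3% rested on 1 edited read. In YWHAB, YWHAH, YWHAZ and YWHAQ the medians were 132 to 317 reads, and 0% to 24.3% rested on 1 edited read. The place of YWHAG above them is thus not at equal sensitivity either. By member the RBFOX2 densities at 1 ng were 66.4 for YWHAE, 26.8 ± 4.70 for YWHAG, 14.1 ± 1.43 for YWHAB, 11.1 ± 10.4 for YWHAQ, 10.5 ± 3.86 for YWHAZ and 5.32 ± 4.88 for YWHAH. The libraries of YWHAE did not overlap those of YWHAG, nor those of YWHAG the ones of YWHAB, while YWHAB, YWHAQ, YWHAZ and YWHAH were not separated from their neighbours in this order beyond the spread of their libraries. The member without the hexamer thus stood in the middle of those with it. With 1 gene in a class no test of the hexamer was possible.

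Pooled over the 5 members that hold it, sites were denser close to the hexamer in the RBFOX2 libraries at 1 ng. There, 9.19% ± 3.88 of the 127 cytosines within 50 nt were edited per library, against 1.65% ± 0.159 of the 2025 farther cytosines. The Enzyme-only library had 2.36% near and 0.444% far, and the Buffer-only libraries 0.787% ± 0.787 near and 0.247% ± 0.0988 far. Both controls thus also had a higher near than far share at 1 ng. The control near values rested on 3 Enzyme-only sites (2 in YWHAE and 1 in YWHAZ) and on 3 Buffer-only sites, all in YWHAE and in 2 of the 3 libraries. Among 100 pg libraries, RBFOX2 had 2.10% ± 0.909 near and 0.988% ± 0.215 far, Enzyme-only 0.787% and 1.04%, and Buffer-only 0.525% ± 0.455 and 0.165% ± 0.159. The pooled shares mix unlike genes. With RBFOX2 at 1 ng the near and far shares were 14.1% and 1.63% in YWHAG and 10.1% and 6.16% in YWHAE. They were 11.1% ± 13.9 and 0.442% in YWHAQ, 3.03% and 1.02% in YWHAZ, and 0% and 0.575% in YWHAH.

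As a share of the members' 3′UTR sites, those within 50 nt of UGCAUG made up 28.3% (95% Wilson interval 17.97 to 41.6), 12.5% (5.86 to 24.7) and 27.5% (17.1 to 40.9) of the 53, 48 and 51 sites of the RBFOX2 libraries at 1 ng. The Enzyme-only library had 25% of 12 sites (8.89 to 53.2), and the Buffer-only libraries 0% of 5 (0 to 43.4), 25% of 8 (7.15 to 59.1) and 10% of 10 (1.79 to 40.4). The RBFOX2 mean of 22.8% ± 8.89 and the Buffer-only mean of 11.7% ± 12.6 overlapped in their libraries, and the few control sites left a difference between them not detectable at this depth. For all other genes the share was 6.98% ± 0.293 with RBFOX2 (40939 3′UTR sites), 3.23% with Enzyme-only and 2.78% ± 0.238 with Buffer-only (10331 sites). Sites in genes without UGCAUG count there as not near. Of all genes with an annotated 3′UTR 37.1% hold the hexamer, against all members but YWHAB. The shares of members and other genes are thus not a like comparison. For 100 pg the members had a near share of 11.0% ± 3.76 with RBFOX2 (8 of 74 sites), 4.17% with Enzyme-only (1 of 24) and 7.87% ± 6.85 with Buffer-only (2 of 19). By gene, near sites at 1 ng numbered 19 of 43 in YWHAG, 10 of 54 in YWHAE, 5 of 8 in YWHAQ, 1 of 25 in YWHAZ and 0 of 5 in YWHAH.

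**Figure D3:**
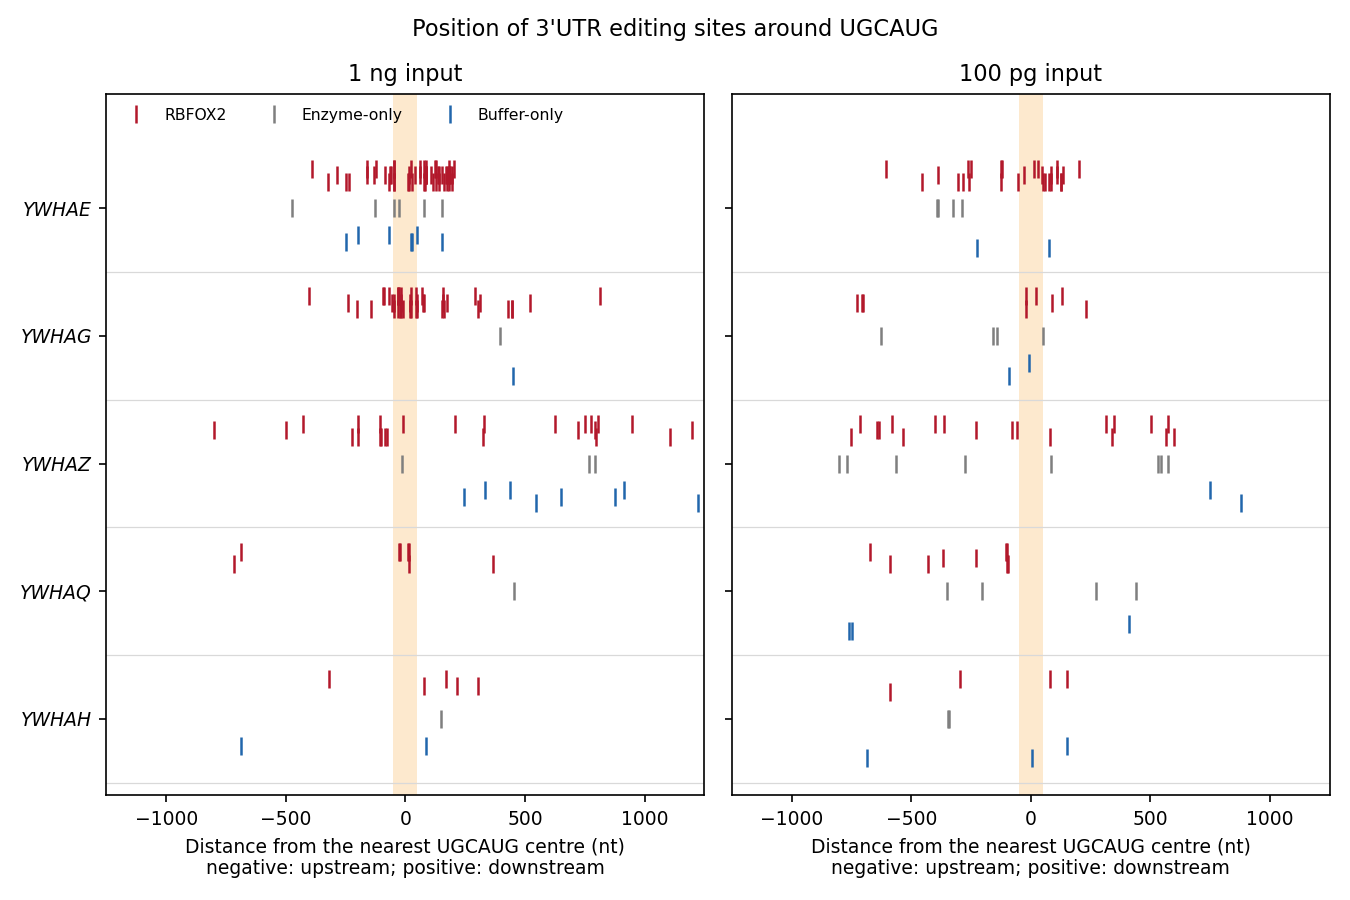
Distance in nt of each 3′UTR site from the centre of the nearest UGCAUG (horizontal; negative is upstream on the RNA) for the 5 members that hold it, at 1 ng (left) and 100 pg (right), with RBFOX2 above Enzyme-only and Buffer-only and 1 line per replicate; the shaded band is 50 nt to either side. At 1 ng, 19 of 43 RBFOX2 sites of YWHAG and 5 of 8 of YWHAQ fall in the band, against 0 of 5 of YWHAH.

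The confident edit clusters deposited for RBFOX2, which the authors formed over the 3 replicates, held 6 clusters in members among 776 at 1 ng and 2 among 214 at 100 pg after removal of the Buffer-only clusters. Each had to be found in all 3 RBFOX2 replicates, so sites from 3 libraries follow from that rule. The removal favours clusters with few Buffer-only sites, though the members had 6 and 2 clusters before it too. At 1 ng YWHAG had 3, of which the longest (76327250 to 76327459, 210 nt) held the distal hexamer and 21 RBFOX2 sites from all 3 libraries, with 0 in Enzyme-only and 0 in Buffer-only. YWHAE had 2 at 1 ng, of 225 and 45 nt, which held 37 and 7 RBFOX2 sites, 2 and 2 Enzyme-only sites and 4 and 1 Buffer-only sites; neither held UGCAUG, though the longer one ended 6.5 nt from its centre. At 100 pg YWHAE had 2, and the one at 1344726 to 1344785 held the hexamer, with 4 RBFOX2 sites from 3 libraries and 0 in either control. YWHAZ had 1 at 1 ng (90 nt), 733.5 nt from UGCAUG and 25 nt from a GCAUG, with 5 RBFOX2 and 2 Enzyme-only sites. YWHAQ, YWHAH and YWHAB had none at either input, and the Buffer-only lists held none in any member. The share of other genes that held a confident cluster is not given here, so these numbers do not set the family apart. Per library, clusters in the 6 members numbered 32, 26 and 30 with RBFOX2 at 1 ng, 16 with Enzyme-only and 7, 9 and 12 with Buffer-only. The 100 pg numbers were 24, 15 and 25 with RBFOX2, 17 with Enzyme-only, and 13, 2 and 10 with Buffer-only.

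Some edited positions of the members recurred between RBFOX2 replicates, mostly in YWHAE and YWHAG. At 1 ng, 24 of 128 edited 3′UTR positions (18.8%) were found in at least 2 RBFOX2 libraries and 0 in all 3, against 4.17% and 0.365% of 39163 positions in other genes. Of the 24, 13 were in YWHAE and 7 in YWHAG, 2 in YWHAZ and 1 each in YWHAB and YWHAQ. The other genes were not matched to the members for sites per gene, so these shares are not a like comparison. Only 0.362% of genes with a site had more RBFOX2 sites at 1 ng than YWHAE, and 0.789% more than YWHAG. No Buffer-only position of a member recurred, of 23. At 100 pg, 5 of 69 RBFOX2 positions (7.25%) recurred, against 2.41% in other genes. Between inputs, which may share edited RNA, 15 positions were shared, 11.7% of the 1 ng and 21.7% of the 100 pg positions, and 13 of them were in YWHAE, where 4 of 41 RBFOX2 positions at 1 ng were also edited in a Buffer-only library of that input.

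The base before the edited cytosine was A or U in 86.2% of the members' 152 RBFOX2 3′UTR sites at 1 ng, in 11 of 12 Enzyme-only sites and in 43.5% of 23 Buffer-only sites. Of all 2555 3′UTR cytosines of the members, 54.4% follow A or U. The 100 pg shares were 83.8% of 74 with RBFOX2, 83.3% of 24 with Enzyme-only and 68.4% of 19 with Buffer-only. As background, APOBEC1 favours A or U at this place.

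Sites per gene over all regions were fitted across all genes with edgeR's quasi-likelihood test, RBFOX2 against Buffer-only. At 1 ng 1.63% of the 2269 genes tested rose and 0.749% fell at an adjusted p under 0.05, and YWHAG was the 1 member called, of 4 that passed the filter on low counts. That filter asked for a minimum in as many libraries as 1 group held, whichever they were. YWHAG, YWHAE and YWHAB could pass it only through the RBFOX2 libraries, where their counts were higher. Their fitted values rest on that selection and are a description. YWHAG had 18, 14 and 15 sites with RBFOX2 and 1, 0 and 0 with Buffer-only. The fit gave a log2 fold change of 3.96 ± 0.81 by edgeR (SE, Benjamini-Hochberg adjusted p = 0.0170). This fitted value depends on the prior count, since Buffer-only held 1 site, and with 1 library left out it ran between 3.60 and 6.63, the highest without Buffer-only replicate 1. The call was lost without any 1 of the Buffer-only libraries (adjusted p = 0.0777 to 0.202 by edgeR with Benjamini-Hochberg adjustment). Those runs tested 4032 to 4138 genes and called none of them. The YWHAG call was also lost with 3′UTR sites only (log2 fold change 3.31, edgeR adjusted p = 0.0739), with a site score of at least 0.9 (5.35, edgeR adjusted p = 0.0988) and with DESeq2 (4.06), which called no gene at this input. The run on 3′UTR sites only called no gene either. YWHAE, with 19, 25 and 13 sites under RBFOX2 and 0, 4 and 3 under Buffer-only, had a value of 1.67 ± 0.55 on the same scale (edgeR adjusted p = 0.0992). YWHAB (0.71 ± 0.65, edgeR adjusted p = 0.616) and YWHAZ (0.10 ± 0.55, edgeR adjusted p = 0.948) lay within 1 SE of the median of all genes tested, 0.21, and YWHAQ and YWHAH had too few sites to be tested. YWHAZ turned to a log2 fold change of -0.14 with no scaling beyond library totals, a choice that moved the median of all genes to -0.04 and the split of calls to 20 rising and 26 falling, against 37 rising and 17 falling with scaling.

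At 100 pg 0.129% of the 773 genes tested rose and 0% fell by edgeR, that is 1 and 0 genes (84 and 18 at an unadjusted p under 0.05), with 0 and 0 by DESeq2. Of the 3 members tested none was called, and each could pass the filter on low counts only through its RBFOX2 libraries. The fitted log2 fold change was 2.58 ± 0.90 for YWHAZ (edgeR adjusted p = 0.145), 1.79 ± 0.73 for YWHAE (edgeR adjusted p = 0.222) and 0.86 ± 0.79 for YWHAQ (edgeR adjusted p = 0.721). With 1 library left out the YWHAE value ran between 1.46 and 3.56 and the YWHAQ value between 0.51 and 2.63, both highest without Buffer-only replicate 1. In unscaled sites over all regions all 3 RBFOX2 libraries were above all 3 Buffer-only libraries in 5 of 6 members at 1 ng (all but YWHAH), against 50.6% of the genes tested and 16.2% of the 13800 genes with any site. YWHAQ, 1 of the 5, was not among the genes tested at 1 ng, and in 3′UTR sites alone its groups overlapped. The genes tested had passed a filter that the RBFOX2 libraries alone could satisfy. At 100 pg the RBFOX2 libraries were all above in 3 of 6 (YWHAE, YWHAG and YWHAZ), against 25.2% of the genes tested and 4.68% of the 14054 genes with any site. YWHAG was not among the genes tested at 100 pg. By mean RBFOX2 sites at 1 ng, 0.362% of genes with a site had more than YWHAE, 0.789% more than YWHAG, 4.08% more than YWHAZ, 4.88% more than YWHAB, 18.5% more than YWHAQ and 41.8% more than YWHAH.

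**Figure D4:**
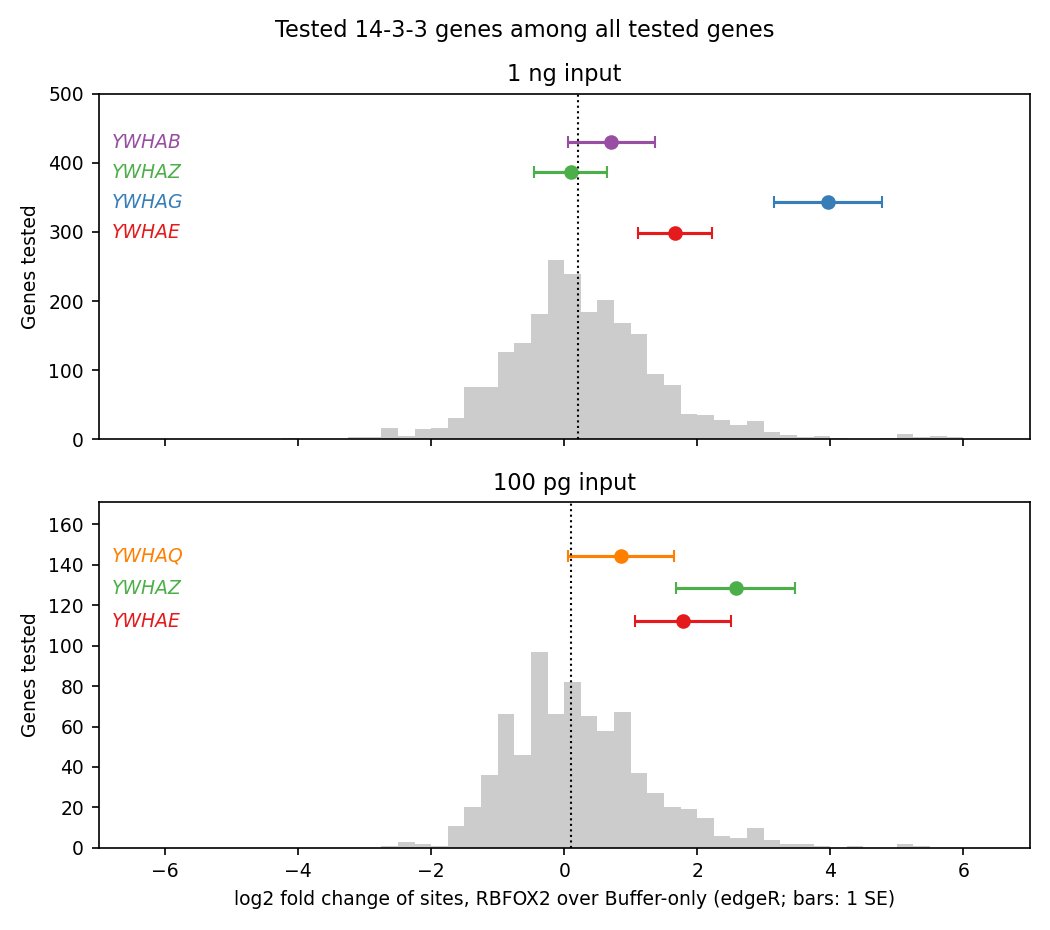
log2 fold change of sites per gene, RBFOX2 over Buffer-only, for all genes tested by edgeR (grey histogram, dotted line at the median) and for the 14-3-3 genes tested (points, bars of 1 SE; their height only separates them), at 1 ng (top) and 100 pg (bottom). YWHAG lies at 3.96 and YWHAE at 1.67 at 1 ng, while YWHAB (0.71) and YWHAZ (0.10) lie near the median of 0.21.

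The change at 1 ng was compared with that at 100 pg by an interaction term in edgeR over 1988 genes, of which 0 passed after adjustment (56 higher and 48 lower had an unadjusted p under 0.05). The log2 difference, 1 ng minus 100 pg, was 2.38 ± 1.78 for YWHAG (edgeR adjusted p = 0.964) and -2.60 ± 1.16 for YWHAZ (unadjusted p = 0.0254, edgeR adjusted p = 0.866). The other 4 lay between -1.03 and 1.53 with SEs of 0.95 to 1.73. Intervals of this width do not show that the inputs gave alike changes. The fit took libraries of the inputs as independent, which no source states.

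Sites on the strand opposite to a member are a background measured in the same spans. The 3 RBFOX2 libraries at 1 ng held 5, 4 and 1 of them over the 6 genes, the Enzyme-only library 4, and the Buffer-only libraries 9, 5 and 9. No member passed (exact two-sided permutation test, n = 3 each, smallest p possible 0.1, adjusted p of 0.3 for YWHAB and YWHAQ and 1 for the other 4). YWHAQ had 1, 1 and 0 with RBFOX2 and 2, 2 and 2 with Buffer-only, and YWHAB 1, 1 and 0 against 2, 2 and 4.

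Of 69 genes listed as 14-3-3 clients or regulators (kinases and phosphatases, growth and metabolic regulators, transcription factors, RNA-binding proteins and others), 15 could be tested at 1 ng and 0 passed the edgeR test in either direction, with 1 higher (FOXO3) and 2 lower (RPTOR and MARK3, named after their values were seen) at an unadjusted p under 0.05, where 268 and 130 of all 2269 genes tested stood. Their median log2 fold change was 0.08, against 0.21 over all genes tested. At 100 pg 6 were tested and 0 passed, with IRS4 alone higher before adjustment. The 3 with the most RBFOX2 sites at 1 ng were IRS4, an insulin receptor substrate (21 ± 7.21 sites with RBFOX2, 7.33 ± 1.53 with Buffer-only, log2 fold change 0.18 ± 0.38), FOXO3, a forkhead transcription factor (12 ± 2 and 1.67 ± 1.15, 1.48 ± 0.60), and PPP1R12A, a myosin phosphatase subunit (11.7 ± 2.52 and 3 ± 2, 0.62 ± 0.53). The edgeR adjusted p was 0.862, 0.182 and 0.588 in that order.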

How the data were processed

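Sites and clusters came from 14 libraries of methanol-fixed cells. Per the methods of the study, the authors made low-input libraries with a kit not stated to keep strand, sequenced single-end reads, trimmed them (cutadapt, version not given in the sources used here), removed repeats, mapped what was left with STAR to hg38 (the submitters' notes give version 2.4.0), and called sites with SAILOR, dropping known variants. The deposited site files give read counts (edited and all) and a score above 0.5, with an edit fraction below 0.8, and the lowest coverage was 5 reads. The authors called clusters with FLARE (false discovery rate 0.1, merge distance 15 nt), whose deposited values are counts, an edit fraction, a mean depth signal and a score. Confident clusters give the authors' mean depth signal over replicates, and their FLARE statistics were not used.

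Here sites were placed on Gencode 44 (hg38), later than the authors' annotation, with 3′UTR before other regions, using pandas 2.3.3, scipy 1.17.1, matplotlib 3.10.9 and numpy 2.4.6 under Python 3.11.15. A site was near a motif when within 50 nt of its centre. Sites per gene were tested with edgeR 4.0.16 (R 4.3.3; TMM, filter of 3 sites per library and 5 in all, Benjamini-Hochberg at 0.05), and with DESeq2 1.42.0 as an alternative. The edgeR step was run on simulated counts with the same dispersion for every gene. The data need not have this, so that run does not show how reliable the calls are. Intervals are 95% Wilson or exact and cover counting error only, since reads without molecular identifiers are not independent molecules. Nothing states separate cultures beyond separate slides, so p-values measure the spread between these slides. No pairing by replicate number was seen: the correlation of same-numbered deviations lay between -0.027 and 0.008. Site counts per gene are low, so this check cannot exclude a slide shared between groups.

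Members and lists were chosen with earlier results of these data known. The text names the 6 members, SFN, any 14-3-3 pseudogene with a site in at least 2 libraries, the 5 genes of at least 30 sites most correlated with the family over the libraries, and client genes that were called or, with none called, the 3 with the most RBFOX2 sites at 1 ng.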

Additional observations from a re-analysis of the deposited data

How the results depend on the processing

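YWHAG was the member called at 1 ng (1 of 4 tested). By edgeR this call was kept with no further scaling, with sites of at least 10 reads and with edited reads in place of sites, and 0 members were called with a SAILOR score of at least 0.9 or with 3′UTR sites only. DESeq2 called 0 members, and 0 genes in all (before adjustment 156 genes lay higher and 78 lower with p under 0.05), and gave YWHAG no adjusted p. Without a filter beyond 1 site 2 members were called, YWHAE and YWHAG. Leaving out 1 library gave 0 to 2 members: YWHAE was added without RBFOX2 replicate 1 (edgeR adjusted p = 0.0439) or replicate 3 (0.0473). The default filter left no member to test. Over all genes, 37 rose and 17 fell at 1 ng, against 92 and 1 without the filter, 14 and 12 with the default filter, 24 and 19 with at least 10 reads, 0 and 3 with the higher score, 0 and 0 with 3′UTR sites only, 111 and 48 with edited reads, and 0 to 70 and 0 to 15 with 1 library left out. At 100 pg 0 were called under each alternative that tested a member. With the replicate number as a block (replicates were on separate slides, but no source says that a number marks a slide shared between groups), YWHAG stayed called at 1 ng (1 member, edgeR adjusted p = 0.0463), while calls over all genes went to 8 rising and 1 falling, and 0 members were called at 100 pg or in the interaction.

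The log2 fold change of YWHAZ at 1 ng, 0.10, changed sign with no further scaling (-0.14), at least 10 reads (-0.084), 3′UTR sites only (-0.28), edited reads (-0.19), without RBFOX2 replicate 1 (-0.11) and without replicate 3 (-0.00020), with a range of -0.11 to 0.45 over the libraries left out, and that of YWHAB with 3′UTR sites only (-0.16). The cause was not tested.

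The excess of 3′UTR sites per library, RBFOX2 minus Buffer-only, was 43.0 at 1 ng and 18.3 at 100 pg. At 1 ng it was 36.7 with at least 10 reads, 18.3 with a score of at least 0.9, 48.7 without positions edited in any Buffer-only library (which sets Buffer-only to 0 by construction and so had to raise it), and 8.69 per 10000 library sites. At 100 pg it was 12.7 with at least 10 reads and 5.95 per 10000 sites. Without YWHAE, an alternative chosen after seeing the data, it was 27.3 and 10. Leaving out 1 library gave 41.7 to 44.3 and 16.2 to 22.2.

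The RBFOX2 share near UGCAUG, 22.8% at 1 ng, was 11.7% within 25 nt, 38.8% within 100 nt, 62.6% within 200 nt and 38.2% for GCAUG. At 100 pg, 11.0% became 4.72%, 29.3%, 43.8% and 19.96%, 14.9% with at least 10 reads, and 5.47% without YWHAE, against 8.93% in Buffer-only. Leaving out 1 library gave 19.98% to 27.9% and 9.33% to 13.0%.

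The difference in density of members with and without the hexamer, 6.85 at 1 ng, was 3.44 with at least 10 reads, 8.62 with a score of at least 0.9 and 1.39 per kb. Without YWHAE it was 0.293, without YWHAG 4.90, without YWHAZ 12.9, without YWHAQ 8.09 and without YWHAH 9.50. At 100 pg it was 1.11 per kb. Leaving out 1 library gave 6.49 to 7.26 and 4.41 to 7.51. Leaving out YWHAB gave no value. The opposite-strand test could give no call under any setting, since its smallest p is 0.1, and low depth limits YWHAE most.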

Other observations

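SFN, the sigma isoform and a known p53 target, had no site in any library, and its 500 nt 3′UTR holds no UGCAUG. Of 25 annotated 14-3-3 pseudogenes, 4 had a site, 11 sites in all. YWHAZP3 had 6 sites in 2 libraries, all with RBFOX2, and YWHAZP2 had 3 in 3 libraries, 2 with RBFOX2 and 1 with Buffer-only. Reads of such processed copies and of YWHAZ may not be separable. YWHAH-AS1 had 4 sites in 3 libraries.

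As sites per 10000 library sites the family had 13.9 ± 1.57 with RBFOX2, 4.74 with Enzyme-only and 4.42 ± 0.963 with Buffer-only at 1 ng. The 100 pg values were 11.8 ± 2.72 with RBFOX2, 10.1 with Enzyme-only and 4.65 ± 3.25 with Buffer-only (SD, n = 3 for RBFOX2 and Buffer-only). The Enzyme-only value was near Buffer-only at 1 ng and inside the RBFOX2 range at 100 pg. Over the 14 libraries, the genes whose share of sites followed the family most closely among 2556 genes were CMTM6 (Pearson r = 0.910), ABI1 (0.895), CAPZA2 (0.871), DDIT4 (0.866) and PAFAH1B2 (0.866). CMTM6 averaged 15.3 sites with RBFOX2 at 1 ng against 7 with Enzyme-only and 1.33 with Buffer-only. These points share library totals and group labels, and r is a description.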
